A study of Mus musculus with 9 samples.

Results

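The matrix metalloproteinase (*Mmp*), *Adamts* and *Timp* genes of the mouse were followed through liver regeneration after partial hepatectomy. All genes whose symbol is Mmp, Timp or Adamts followed by a number and at most 1 letter, and which the deposited table calls protein-coding, were taken, which gave 46 of 43346 genes: 23 *Mmp*, 19 *Adamts* and 4 *Timp* genes. Bulk RNA-Seq was performed on whole liver from C57/BL6 mice aged 12 weeks, which the study's methods give as male. NSC-87877 (NSC) is a small molecule inhibitor of the phosphatases SHP1 and SHP2. Vehicle or NSC at 7.5 mg/kg was given 2 times a day, from 12 h before a 70% partial hepatectomy until the animals were killed at 40 h. There were 3 groups of 3 libraries. Baseline was the liver of vehicle-treated mice at 0 h, which the study's methods give as the resected tissue. The others were the remnant of vehicle-treated mice at 40 h and the remnant of NSC-treated mice at 40 h. The labels do not say whether baseline and vehicle remnant libraries came from the same mice, and they were treated here as separate. All mice were thus given vehicle or NSC, and no untreated liver and no NSC liver at 0 h was analysed here. The operation removes named lobes and leaves others, so that time after surgery and lobe cannot be told apart in either comparison with baseline, and the 2 comparisons share the baseline libraries.

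MMPs are zinc-dependent endopeptidases that are made as inactive proenzymes and, once activated, cleave collagens, proteoglycans, growth factors and their binding proteins. ADAMTS enzymes are secreted relatives with thrombospondin repeats that process procollagens, cleave large proteoglycans or, in the case of ADAMTS13, cut von Willebrand factor. TIMPs bind the active site of these enzymes and hold them inactive. In the liver they are known mainly as products of stellate cells, portal fibroblasts, macrophages, neutrophils and endothelium, and the matrix around hepatocytes is broken down and laid down again during regeneration and fibrosis.

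The libraries held 23997363 to 42887589 counts on genes, of which 5247 to 10983 fell on the 46 members. Levels are given in CPM, the count scaled to the library total, and 3 counts, taken as the floor, were worth 0.0751 to 0.117 CPM (counting error only). Summed transcripts of 6 hepatocyte markers lay between 89460 and 125819 CPM in all 9 libraries. NSC replicate 1 stood apart from the other NSC remnants: it had the highest CPM of the 3 NSC libraries for 22 of the 28 members that could be tested, whereas it was the highest for 37% of all 15024 genes tested. Vehicle replicate 1 at 40 h was likewise the highest of its group for 15 of the 28, against 28% of all genes. Baseline replicate 2 was the highest of its group for 15 of the 28, where the share of all genes was not taken. Results that rest on NSC replicate 1 are given with and without it. Since these members set it apart, leaving it out lowers the NSC level of most of them by construction. The study describes the libraries of a group as separate biological replicates.

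Of the 46 members, 10 formed a gene cluster on chromosome 9 (chr9:7272514-7699585, 427.1 kb, coordinates as deposited, mouse GRCm38), in the order *Mmp13*, *Mmp12*, *Mmp1b*, *Mmp3*, *Mmp1a*, *Mmp10*, *Mmp8*, *Mmp27*, *Mmp20* and *Mmp7*. Promoter windows from RefSeq (GRCm38.p6, 250 bases before to 50 bases after a start site) were matched by symbol to 32 of the 46 members. The binding motif of AP-1 (TGACTCA, or TGAGTCA on the other strand), the FOS and JUN dimer long tied to *Mmp* promoters, was found in 7 of these 32 genes (21.9%) and in 5.95% of all 27025 genes with a window. All 7 lay in the chromosome 9 cluster, in 7 of its 10 genes and in none of the 22 members outside it that had a window. Members without a window were not searched. A match is a description of the letters, and its absence says only that they are not in the window. The 100 bases directly before each start site are shown for these 7 genes, 5′ to 3′ on the strand of the gene, because they share the motif, which is in capitals.
Mmp13, chr9:7272414-7272513, + strand: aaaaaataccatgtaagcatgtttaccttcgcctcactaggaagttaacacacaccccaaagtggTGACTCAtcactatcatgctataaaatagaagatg
Mmp12, chr9:7347274-7347373, + strand: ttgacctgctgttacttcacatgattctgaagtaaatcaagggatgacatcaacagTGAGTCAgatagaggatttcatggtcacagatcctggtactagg
Mmp1b, chr9:7388027-7388126, - strand: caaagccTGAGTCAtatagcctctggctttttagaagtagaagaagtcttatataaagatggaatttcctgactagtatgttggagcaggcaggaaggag
Mmp3, chr9:7445722-7445821, + strand: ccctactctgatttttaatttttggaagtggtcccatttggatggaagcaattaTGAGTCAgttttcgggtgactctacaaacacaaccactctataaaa
Mmp1a, chr9:7464041-7464140, + strand: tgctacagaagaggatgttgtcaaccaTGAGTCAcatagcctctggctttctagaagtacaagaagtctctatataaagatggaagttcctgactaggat
Mmp10, chr9:7502242-7502341, + strand: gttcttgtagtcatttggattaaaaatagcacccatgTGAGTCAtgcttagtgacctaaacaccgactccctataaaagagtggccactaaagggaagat
Mmp7, chr9:7691990-7692089, + strand: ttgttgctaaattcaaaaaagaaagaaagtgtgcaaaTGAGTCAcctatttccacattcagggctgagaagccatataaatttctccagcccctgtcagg

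The motif began 35 bases before the start site in *Mmp13*, 44 in *Mmp12*, 46 in *Mmp3*, 63 in *Mmp10* and *Mmp7*, 73 in *Mmp1a* and 93 in *Mmp1b*. The *Mmp12* window belongs to a second annotated start inside the gene, and *Mmp7* likewise has a further window, without the letters. Only *Mmp12* and *Mmp7* of these 7 genes were abundant enough in liver to be tested. *Mmp1a* and *Mmp1b*, the mouse relatives of human interstitial collagenase, had 0 counts in all 9 libraries, which allows up to the floor of 3 counts in each. *Mmp13*, the main rodent interstitial collagenase, had at most 13 counts in any library, and *Mmp3* (stromelysin-1) had 27 counts in NSC replicate 1 and at most 12 elsewhere. The letters for ETS factors (AGGAAG or CTTCCT, PEA3) were in 15 of the 32 member genes (46.9%) against 38.4% of all genes, and no match of it overlapped one of the AP-1 letters. Summed over the 10 cluster genes, the level was 0.979, 1.01 and 0.726 CPM at baseline, 3.73, 3.39 and 2.88 CPM in the vehicle remnants and 6.42, 2.21 and 1.80 CPM in the NSC remnants.

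Levels between genes were compared per length, in FPKM, which divides the fragments of a gene by its length and the library total. *Mmp19*, a secreted MMP, was the most abundant member, with a mean of 24.1 FPKM over the 9 libraries and a range of 20.6 to 30.3 FPKM. *Mmp14* (MT1-MMP, the membrane-anchored collagenase that activates proMMP2) followed at 14.5 FPKM, with a range of 7.72 to 22.7 FPKM that overlapped that of *Mmp19*. *Mmp15* (MT2-MMP) had 5.14 FPKM and *Timp1* 4.40 FPKM, the latter with a range from 0.102 to 14.3 FPKM that overlapped the ranges of the members just above and below it. *Timp2* was next at 3.07 FPKM. *Mmp19*, *Mmp14* and *Mmp15* together made 87.7% to 95.8% of the summed MMP FPKM of a library. Mean levels were over 1 FPKM in 9 of the 46 members and under 0.1 FPKM in 18.

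There were 18 members too low to be tested. Of these, 11 had 3 counts or fewer in every library: *Mmp1a*, *Mmp1b*, *Mmp10*, *Mmp16*, *Mmp20*, *Mmp21*, *Timp4*, *Adamts8*, *Adamts18*, *Adamts19* and *Adamts20*. The 5 at 0 counts throughout were *Mmp1a*, *Mmp1b*, *Mmp20*, *Adamts18* and *Adamts19*. The highest count in any library was 13 for *Mmp13*, 27 for *Mmp3*, 15 for *Mmp28*, 12 for *Mmp24*, 8 for *Adamts16*, 6 for *Adamts17* and 4 for *Mmp25*. The other 28 members entered the fit. A member low at baseline enters it through the groups in which it is high, which was so for 7 members with at most 10 counts in every baseline library (*Timp1*, *Mmp7*, *Mmp8*, *Mmp12*, *Adamts3*, *Adamts4* and *Adamts12*), so that the counts of higher members below describe those tested and are no measure of all 46.

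**Figure D1:**
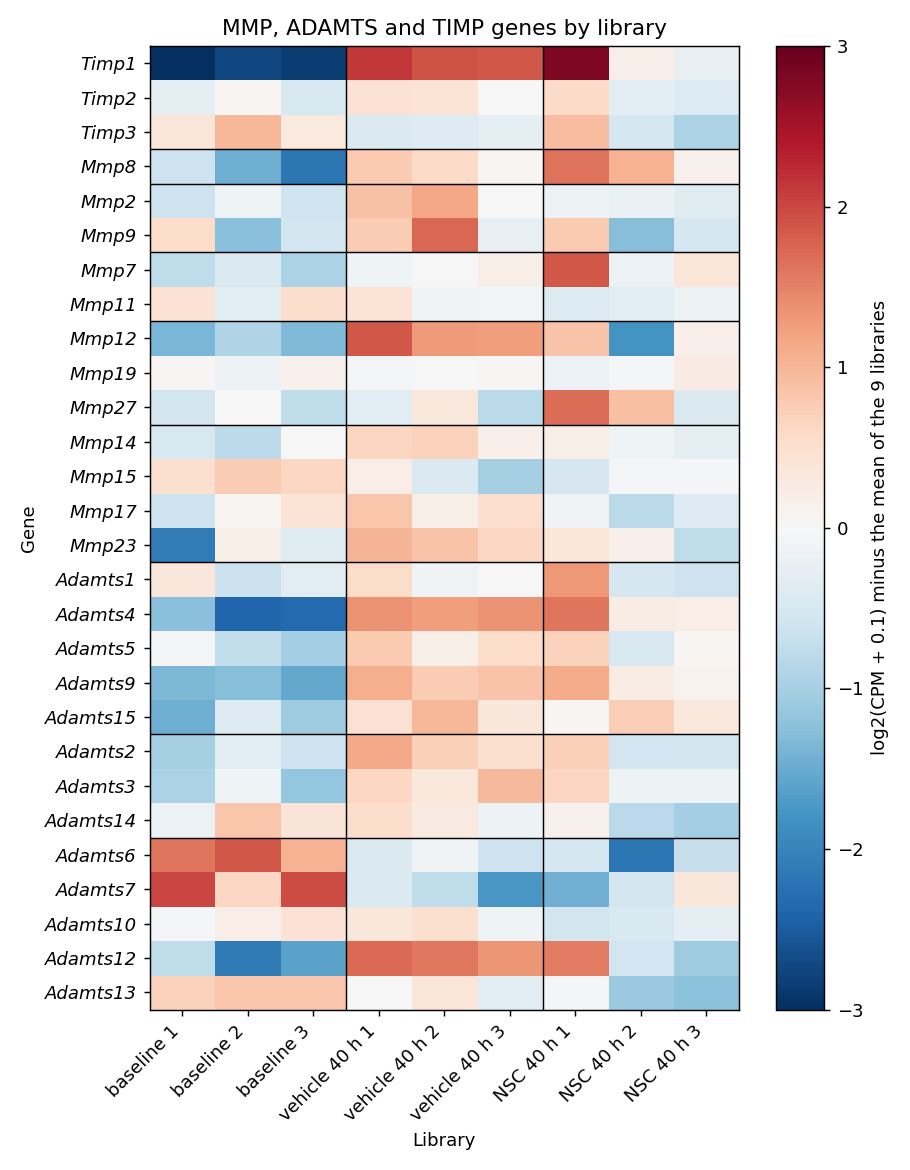
Each row is a member that was tested, grouped by role, and each column a library; colour gives log2(CPM + 0.1) minus the mean of that gene over the 9 libraries. Timp1, Adamts4 and Adamts12 are below their mean in all 3 baseline libraries and above it in all 3 vehicle remnants, while Adamts6 and Adamts7 show the opposite, and NSC 40 h 1 is the highest NSC library in 22 of 28 rows.

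At 40 h after hepatectomy, more of the tested members were higher than lower in vehicle-treated mice. By the edgeR quasi-likelihood test, with p-values adjusted over all 15024 genes by the Benjamini-Hochberg method and an adjusted p under 0.05 as the threshold for a call, 11 of 28 members rose (39.3%) and 3 fell (10.7%). Among all genes tested, 12.7% rose and 11% fell. Those that rose were *Timp1*, *Mmp2*, *Mmp8*, *Mmp12*, *Mmp14*, *Adamts2*, *Adamts3*, *Adamts4*, *Adamts9*, *Adamts12* and *Adamts15*, and *Mmp15*, *Adamts6* and *Adamts7* fell. The median log2 fold change of the 28 was 0.98, against 0.01 for all genes. Over the 16 members with at least 10 counts in every library, a filter that also removes members that fell to low counts, the median was 0.21 with vehicle and 0.12 with NSC. With an additional log2 fold change over 1.5, 8 members rose and 2 fell, against 5.03% and 2.19% of all genes. Groups did not overlap, with vehicle higher, for 14 members, against 24.2% of all genes, and with vehicle lower for 5, against 22%. At an unadjusted p under 0.05, 17 members differed, against 37% of all genes.

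In NSC-treated mice, 7 of the 28 members rose over baseline (25%) and 5 fell (17.9%), against 18.2% and 16.5% of all genes, so that the share that fell was close to the background. *Timp1*, *Mmp7*, *Mmp8*, *Adamts4*, *Adamts9*, *Adamts12* and *Adamts15* rose, and *Mmp15*, *Adamts6*, *Adamts7*, *Adamts10* and *Adamts13* fell. The median log2 fold change was 0.42, and 0.01 for all genes. With the additional fold threshold, 6 rose and 2 fell, against 5.38% and 2.75%. NSC was higher without overlap for 6 members and lower for 5, against 24% and 23.1% of all genes, and 15 members had an unadjusted p under 0.05, against 45.2%. Without NSC replicate 1, 5 members rose and 5 fell against 17.8% and 15.9% of all genes, and the median was 0.13. The same fit without that library gave 14 higher and 5 lower members for vehicle against baseline, where the background was 15.8% and 13.7%.

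**Figure D2:**
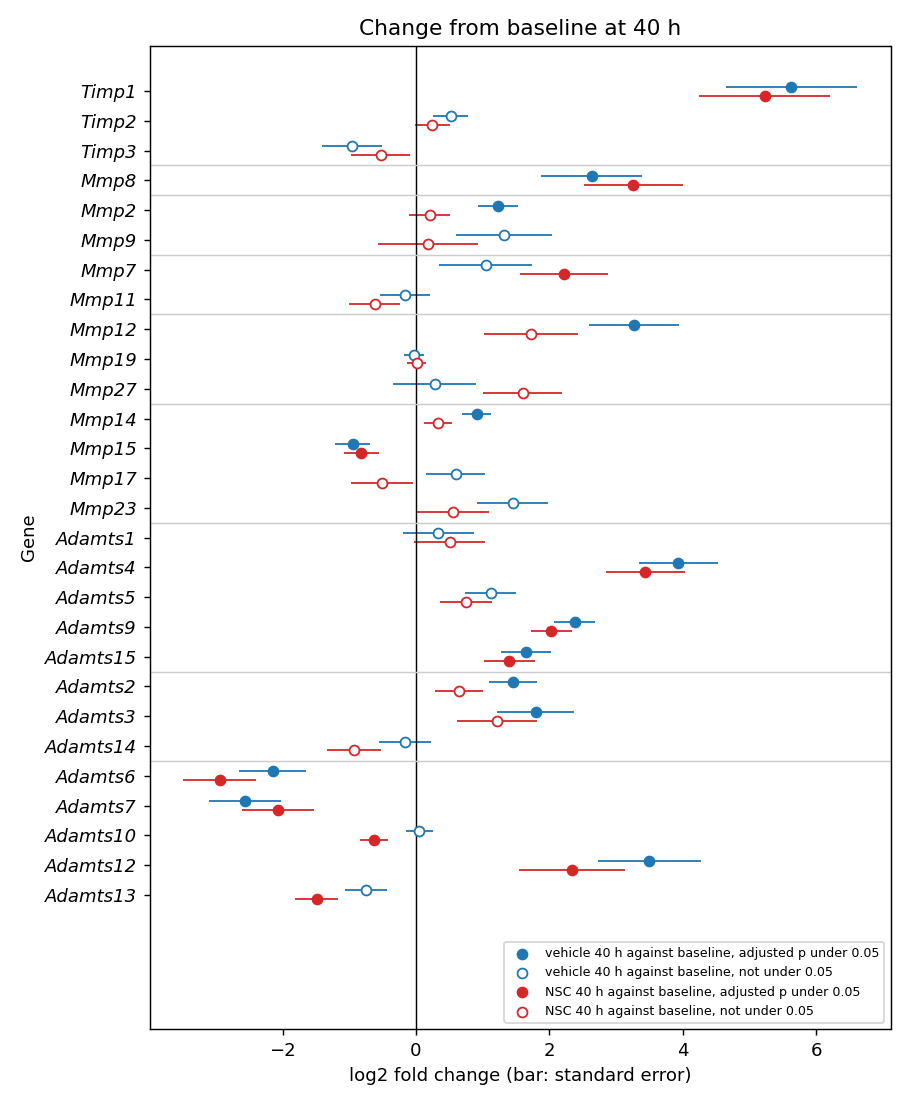
Log2 fold change from baseline (x axis) with its standard error (bar) for the 28 tested members, vehicle in blue and NSC in red; filled points have an adjusted p under 0.05. Timp1 lies farthest to the right in both groups, at 5.63 and 5.23, and Adamts6 (-2.15 and -2.94) and Adamts7 (-2.57 and -2.07) lie farthest to the left.

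Among the inhibitors, *Timp1*, an inducible inhibitor of most secreted MMPs (chrX:20870166-20874735), had the largest change of all tested members. Its level was 0.0948, 0.153 and 0.132 CPM at baseline, 7.16, 6.19 and 5.98 in the vehicle remnants and 11.5, 1.77 and 1.33 in the NSC remnants. The baseline libraries held 3, 5 and 4 counts and lay far below every other library, and within NSC the first replicate was far above the others. *Timp1* rose with vehicle (log2 fold change 5.63, standard error 0.98, adjusted p = 0.00475) and with NSC (log2 fold change 5.23, standard error 0.98, adjusted p = 0.00440), and without NSC replicate 1 the log2 fold change with NSC was 3.58. It made 2.13% to 3.25% of the summed TIMP FPKM at baseline, 56.3% to 59.8% in the vehicle remnants and 61.6%, 35.1% and 31.5% in the NSC remnants. The gene lies within *Syn1* on the opposite strand, which had at most 15 counts and shares no exon base with it. In bulk tissue, more cells of a type and more RNA per cell cannot be told apart, here and for every level below.

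*Timp2* (chr11:118301069-118355740), a constitutive inhibitor that also takes part in the activation of proMMP2 by MMP14, had 9.45, 12.0 and 8.22 CPM at baseline, 15.6, 15.4 and 11.5 in the vehicle remnants and 17.2, 9.24 and 8.65 in the NSC remnants. It was not called (vehicle: log2 fold change 0.52, adjusted p = 0.173; NSC: log2 fold change 0.25, adjusted p = 0.496). Without NSC replicate 1 the vehicle comparison passed (adjusted p over the alternatives 0.0443 to 0.397) and the NSC value turned to -0.14. *Timp3* (chr10:86300372-86349506), the matrix-bound inhibitor that also blocks ADAM17 and several ADAMTS enzymes, had 20.1, 31.0 and 18.9 CPM at baseline, 11.4, 11.8 and 12.7 in the vehicle remnants and 29.6, 10.7 and 7.98 in the NSC remnants. All 3 vehicle remnants and the second and the third NSC remnant lay below the baseline range, while NSC replicate 1 lay within it. *Timp3* had a log2 fold change of -0.96 with vehicle (adjusted p = 0.158) and -0.53 with NSC (adjusted p = 0.388). Without NSC replicate 1 both comparisons passed, at -0.96 and -1.32 (adjusted p over the alternatives 0.00268 to 0.363 and 0.000810 to 0.716), and vehicle also passed by the DESeq2 Wald test and in a fit of the 2 groups alone. *Timp3* lies inside *Syn3* on the opposite strand and shares 1733 exon bases with it, and *Syn3* had at most 29 counts. *Timp4* had at most 3 counts in any library.

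**Figure D3:**
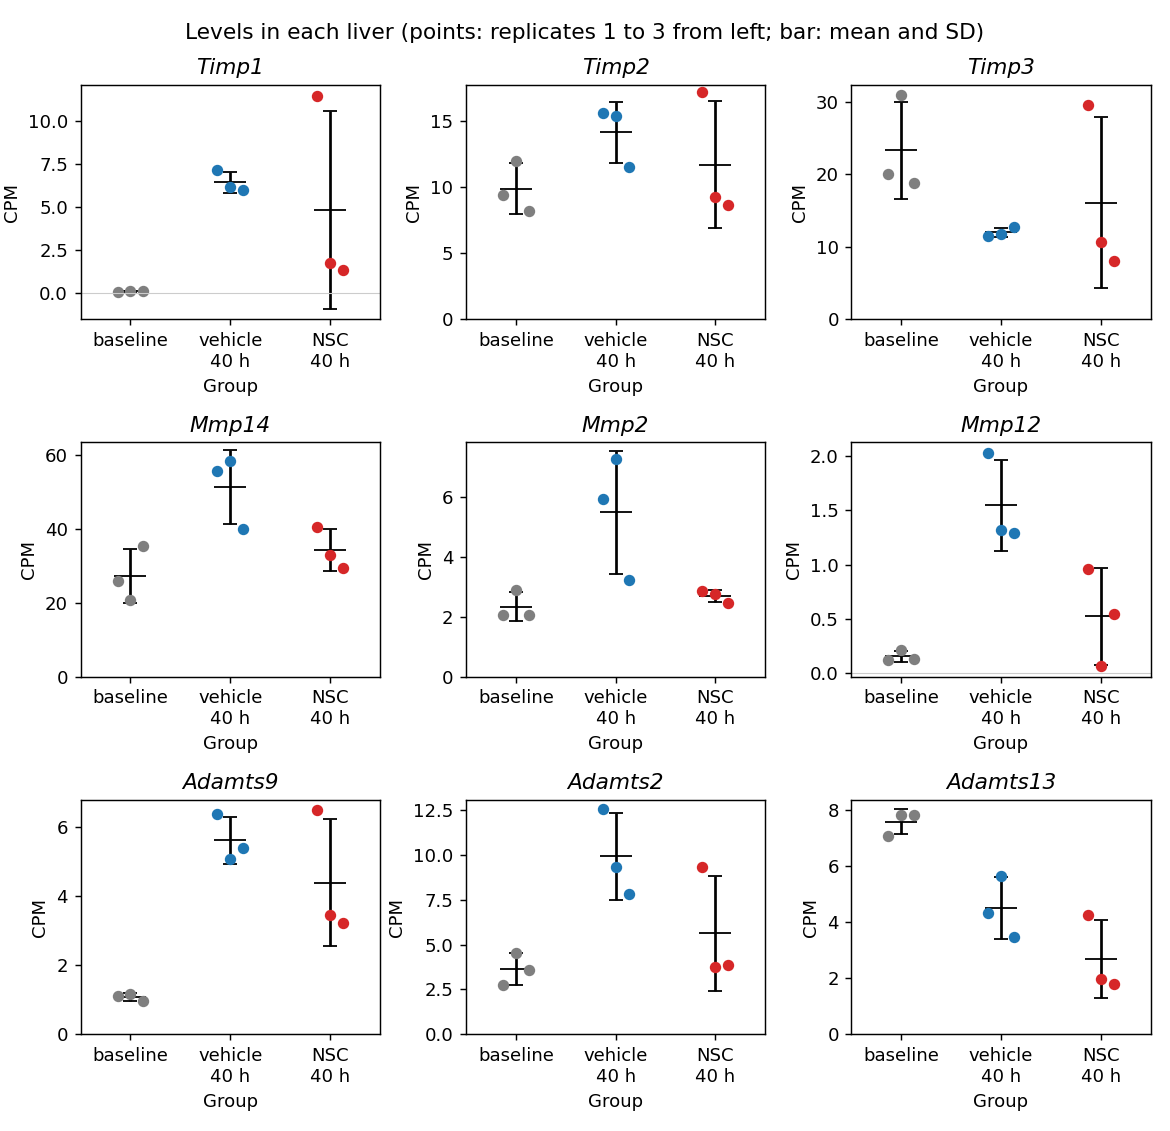
CPM of 9 members in each library by group (points, replicates 1 to 3 from left), with the mean and SD of 3 libraries as bars. Timp1 is near 0 at baseline and between 5.98 and 7.16 CPM with vehicle, and in most panels NSC replicate 1 lies above the other NSC libraries.

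Of the 4 collagenases, *Mmp8* (chr9:7558429-7568486), stored by neutrophils, was the only member tested. Its level was 0.190, 0.0611 and 0 CPM at baseline, 0.676, 0.570 and 0.369 in the vehicle remnants and 1.29, 0.815 and 0.391 in the NSC remnants, on at most 43 counts. All 6 remnants were above all baseline libraries. It rose with vehicle (log2 fold change 2.64, standard error 0.76, adjusted p = 0.0247) and with NSC (log2 fold change 3.26, standard error 0.74, adjusted p = 0.00559). The *Mmp8* call with vehicle was lost without baseline replicate 2 (2.45) or 3 (2.10) or without vehicle replicate 1 (2.45) or 2 (2.6), where the parentheses give the log2 fold change, and its adjusted p ranged from 0.00552 to 0.0759 over the alternatives. Summed neutrophil markers (8 genes) ran from 3.54 to 10.9 CPM at baseline, 9.45 to 20.4 with vehicle and 13.3 to 21.7 with NSC, and their part in this result was not tested.

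The gelatinases cleave denatured collagen and the collagen IV of basement membranes. *Mmp2* (chr8:92827328-92853417), the gelatinase of stellate cells and fibroblasts, had 2.05, 2.9 and 2.08 CPM at baseline, 5.96, 7.28 and 3.25 in the vehicle remnants and 2.88, 2.75 and 2.47 in the NSC remnants. All vehicle remnants were above all baseline and NSC libraries. It rose with vehicle (log2 fold change 1.23, standard error 0.30, adjusted p = 0.0117), and with NSC its log2 fold change was 0.20 (adjusted p = 0.634). The *Mmp2* call with vehicle was lost without baseline replicate 1 (1.14) or 3 (1.16) or without vehicle replicate 2 (0.98), with adjusted p from 0.00105 to 0.0543 over the alternatives. *Mmp9*, the gelatinase of neutrophils and macrophages, had 1.11, 0.244 and 0.462 CPM at baseline, 1.30, 2.62 and 0.591 in the vehicle remnants and 1.32, 0.238 and 0.470 in the NSC remnants, overlapped between all groups and was not called (vehicle: log2 fold change 1.33, adjusted p = 0.208).

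Of the stromelysins and the matrilysin, *Mmp7* (chr9:7692090-7699585), an epithelial matrilysin whose promoter with the AP-1 letters is shown above, had 0.126, 0.183 and 0.0990 CPM at baseline, 0.250, 0.285 and 0.332 in the vehicle remnants and 1.29, 0.238 and 0.391 in the NSC remnants. NSC replicate 1 was well above the other 8 libraries. It was called with NSC (log2 fold change 2.22, standard error 0.66, adjusted p = 0.0218) and not with vehicle (log2 fold change 1.05, adjusted p = 0.302). The *Mmp7* call with NSC was lost without baseline replicate 1 (2.16) or 3 (2.04) or without NSC replicate 1 (1.17), with adjusted p from 0.0123 to 0.169 over the alternatives. *Mmp11* (stromelysin-3) lay between 0.510 and 1.06 CPM in all libraries and was not called.

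*Mmp12* (chr9:7344381-7369499), the macrophage elastase, also carries the AP-1 letters shown above. Its level was 0.126, 0.214 and 0.132 CPM at baseline, 2.03, 1.32 and 1.29 in the vehicle remnants and 0.960, 0.0679 and 0.548 in the NSC remnants. Baseline libraries held at most 7 counts, all vehicle remnants were above all NSC remnants, and NSC replicate 2 was below the whole baseline range. It rose with vehicle (log2 fold change 3.26, standard error 0.67, adjusted p = 0.00496) and was not called with NSC (log2 fold change 1.72, standard error 0.71, adjusted p = 0.0784). The NSC value passed by the DESeq2 Wald test (1.74) and without NSC replicate 2 (2.24), with adjusted p from 0.00948 to 0.360 over the alternatives. *Mmp27* (chr9:7571396-7581885), a secreted MMP of little known function, had 0.284, 0.458 and 0.231 CPM at baseline, 0.350, 0.596 and 0.221 in the vehicle remnants and 1.68, 0.951 and 0.313 in the NSC remnants and was not called (NSC: log2 fold change 1.60, standard error 0.59, adjusted p = 0.0542). It passed with NSC with scaling by library size only (1.75), with every gene of at least 1 count tested (1.61), by the DESeq2 Wald test (1.60) or without NSC replicate 3 (2.01), with adjusted p from 0.0136 to 0.235 over the alternatives. Its values are uncertain, because another gene model of the table, *AC115689.1*, covers the same span and took 138 counts against 166 for *Mmp27*. *Mmp19* (chr10:128790953-128800824), the most abundant member, had 83.7, 73.0 and 90.0 CPM at baseline, 78.6, 80.4 and 83.5 in the vehicle remnants and 72.5, 78.9 and 97.0 in the NSC remnants, and the 3 groups overlapped. Its log2 fold change was -0.02 with vehicle (95% interval -0.35 to 0.30) and 0.01 with NSC (95% interval -0.31 to 0.33). *Mmp19* shares 789 exon bases with *Tmem198b* on the opposite strand, which had at most 240 counts.

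Of the 4 tested membrane MMPs, 1 rose and 1 fell with vehicle. *Mmp14* (chr14:54431604-54441258) had 25.8, 20.8 and 35.3 CPM at baseline, 55.8, 58.3 and 39.9 in the vehicle remnants and 40.6, 32.9 and 29.4 in the NSC remnants. All vehicle remnants were above the baseline range, by less in replicate 3, and the NSC remnants overlapped both other groups. *Mmp14* rose with vehicle (log2 fold change 0.91, standard error 0.21, adjusted p = 0.00976) and had a log2 fold change of 0.33 with NSC (adjusted p = 0.250). *Mmp15* (chr8:95352268-95374293), the membrane MMP of epithelial cells, had 29.3, 35.4 and 32.1 CPM at baseline, 24.0, 15.6 and 10.4 in the vehicle remnants and 14.7, 20.3 and 20.0 in the NSC remnants. All 6 remnants were below all baseline libraries. *Mmp15* fell with vehicle (log2 fold change -0.95, standard error 0.26, adjusted p = 0.0203) and with NSC (log2 fold change -0.82, standard error 0.26, adjusted p = 0.0289). The *Mmp15* call with vehicle was lost without baseline replicate 2 (-0.88) or 3 (-0.95) or without vehicle replicate 2 (-0.90) or 3 (-0.70), with adjusted p from 0.00336 to 0.0678 over the alternatives. The *Mmp15* call with NSC was lost with scaling by library size only (-0.68), without baseline replicate 2 (-0.75) or 3 (-0.82) or without NSC replicate 1 (-0.68), 2 (-0.89) or 3 (-0.88), with adjusted p from 0.00765 to 0.0849 over the alternatives. *Mmp17* and *Mmp23*, a glycosylphosphatidylinositol-anchored and a type II membrane MMP, were not called in either comparison with baseline (*Mmp23* with vehicle: log2 fold change 1.45, adjusted p = 0.0659).

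All 5 tested proteoglycan-cleaving ADAMTS genes had a log2 fold change above 0 in both comparisons with baseline when all libraries were fitted, and 3 of them, *Adamts4*, *Adamts9* and *Adamts15*, rose in both. *Adamts1* was below 0 with NSC when NSC replicate 1 was left out (log2 fold change -0.42, adjusted p = 0.284). *Adamts9*, a versicanase (chr6:92772699-92943492), had 1.11, 1.16 and 0.957 CPM at baseline, 6.38, 5.08 and 5.39 in the vehicle remnants and 6.51, 3.46 and 3.21 in the NSC remnants. All 6 remnants were well above all baseline libraries. It rose with vehicle (log2 fold change 2.38, standard error 0.31, adjusted p = 0.000350) and with NSC (log2 fold change 2.03, standard error 0.31, adjusted p = 0.000569). *Adamts4* (chr1:171250421-171260637), aggrecanase-1, had 0.253, 0.0611 and 0.0660 CPM at baseline, 2.03, 1.92 and 2.03 in the vehicle remnants and 2.46, 0.883 and 0.861 in the NSC remnants. It rose with vehicle (log2 fold change 3.93, standard error 0.59, adjusted p = 0.000869) and with NSC (log2 fold change 3.44, standard error 0.60, adjusted p = 0.00126), from at most 8 counts in each baseline library.

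*Adamts15* (chr9:30899155-30922452), a further versicanase, had 0.474, 1.13 and 0.660 CPM at baseline, 2.10, 3.08 and 1.92 in the vehicle remnants and 1.56, 2.58 and 1.88 in the NSC remnants. The remnants of both groups lay above the baseline range. It rose with vehicle (log2 fold change 1.65, standard error 0.37, adjusted p = 0.00811) and with NSC (log2 fold change 1.40, standard error 0.38, adjusted p = 0.0130). The *Adamts15* call with NSC was lost without baseline replicate 1 (1.15) or 3 (1.32) or without NSC replicate 2 (1.18), with adjusted p from 0.00221 to 0.0549 over the alternatives. *Adamts5*, aggrecanase-2, had 1.61, 0.947 and 0.759 CPM at baseline, 2.93, 1.87 and 2.44 in the vehicle remnants and 2.70, 1.15 and 1.72 in the NSC remnants, with all vehicle remnants above baseline, and just missed the threshold with vehicle (log2 fold change 1.12, adjusted p = 0.0530). *Adamts1*, an aggrecanase and versicanase and the most abundant ADAMTS gene per length at a mean of 2.48 FPKM, had 14.8, 7.45 and 9.44 CPM at baseline, 17.2, 10.9 and 11.9 in the vehicle remnants and 29.0, 8.25 and 7.55 in the NSC remnants and was not called. Its log2 fold change was 0.34 with vehicle (adjusted p = 0.696) and 0.50 with NSC (adjusted p = 0.501).

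The procollagen N-proteinases remove the amino-terminal propeptide of fibrillar procollagens. *Adamts2* (chr11:50602084-50807573), the main enzyme for types I and III, had 2.75, 4.52 and 3.60 CPM at baseline, 12.6, 9.36 and 7.83 in the vehicle remnants and 9.33, 3.74 and 3.84 in the NSC remnants. All vehicle remnants and NSC replicate 1 were above the baseline range, and the other NSC remnants were within it. *Adamts2* rose with vehicle (log2 fold change 1.45, standard error 0.36, adjusted p = 0.0134) and had a log2 fold change of 0.64 with NSC (adjusted p = 0.186). The *Adamts2* call with vehicle was lost without baseline replicate 1 (1.29) or without vehicle replicate 1 (1.25), with adjusted p from 0.000537 to 0.0580 over the alternatives. *Adamts3* (chr5:89673841-89883334), the enzyme that also processes VEGF-C, had 0.0948, 0.244 and 0.0660 CPM at baseline, 0.475, 0.363 and 0.627 in the vehicle remnants and 0.480, 0.238 and 0.235 in the NSC remnants and was called with vehicle (log2 fold change 1.80, standard error 0.58, adjusted p = 0.0417). The *Adamts3* call with vehicle was lost with every gene of at least 1 count tested (1.80), without baseline replicate 1 (1.60) or 3 (1.49), without vehicle replicate 1 (1.82), 2 (1.98) or 3 (1.60) or without NSC replicate 2 (1.80), with adjusted p from 0.0264 to 0.152 over the alternatives. *Adamts14* was not called in either comparison (log2 fold change -0.93, adjusted p = 0.0932 with NSC).

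In the remaining ADAMTS genes, *Adamts7* (chr9:90163069-90208071), which cleaves cartilage oligomeric matrix protein and thrombospondins, had 15.9, 6.11 and 15.5 CPM at baseline, 2.88, 2.28 and 1.11 in the vehicle remnants and 1.38, 2.65 and 4.97 in the NSC remnants. All 6 remnants were below all baseline libraries, among which replicate 2 was low. *Adamts7* fell with vehicle (log2 fold change -2.57, standard error 0.55, adjusted p = 0.00920) and with NSC (log2 fold change -2.07, standard error 0.54, adjusted p = 0.0154). The *Adamts7* call with NSC was lost without NSC replicate 2 (-1.99), with adjusted p from 7.80e-05 to 0.0581 over the alternatives. It shares 122 exon bases with *Tbc1d2b* on the opposite strand, which had up to 2724 counts, and the counting is not stated to use strand. *Adamts6* (chr13:104287873-104494763), a close relative of *Adamts10*, had 1.74, 2.11 and 1.15 CPM at baseline, 0.350, 0.466 and 0.295 in the vehicle remnants and 0.330, 0.0340 and 0.274 in the NSC remnants, without overlap between baseline and remnants. *Adamts6* fell with vehicle (log2 fold change -2.15, standard error 0.50, adjusted p = 0.00951) and with NSC (log2 fold change -2.94, standard error 0.55, adjusted p = 0.00188).

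*Adamts13* (chr2:26973416-27009628), the von Willebrand factor protease, is made in liver mainly by stellate cells. It had 7.04, 7.82 and 7.82 CPM at baseline, 4.33, 5.65 and 3.47 in the vehicle remnants and 4.26, 1.97 and 1.80 in the NSC remnants. Every remnant was below every baseline library. *Adamts13* fell with NSC (log2 fold change -1.49, standard error 0.32, adjusted p = 0.00423). The vehicle value was -0.75 (adjusted p = 0.10), and it passed without NSC replicate 1 and in a fit of the 2 groups alone (-0.74 in each, with adjusted p from 0.0177 to 0.277 over the alternatives). *Adamts10* (chr17:33524204-33553782), linked to fibrillin microfibrils, had 8.02, 9.74 and 11.4 CPM at baseline, 10.7, 11.8 and 7.75 in the vehicle remnants and 5.76, 6.08 and 7.01 in the NSC remnants and fell with NSC (log2 fold change -0.63, standard error 0.21, adjusted p = 0.0331). The *Adamts10* call with NSC was lost with scaling by library size only (-0.50), without baseline replicate 2 (-0.63) or 3 (-0.50), without vehicle replicate 1 (-0.63) or without NSC replicate 1 (-0.57) or 2 (-0.61), with adjusted p from 0.0174 to 0.147 over the alternatives. *Adamts12* (chr15:11064790-11346867), a protease of cartilage oligomeric matrix protein, had 0.316, 0.0611 and 0.132 CPM at baseline, 2.18, 2.02 and 1.66 in the vehicle remnants and 1.95, 0.374 and 0.235 in the NSC remnants. The vehicle remnants and NSC replicate 1 stood far above the rest. *Adamts12* rose with vehicle (log2 fold change 3.50, standard error 0.78, adjusted p = 0.00851) and was called with NSC (log2 fold change 2.34, standard error 0.80, adjusted p = 0.0417). The *Adamts12* call with NSC was lost with every gene of at least 1 count tested (2.35), without baseline replicate 2 (1.94) or 3 (2.20), without vehicle replicate 1 (2.34), 2 (2.34) or 3 (2.34) or without NSC replicate 1 (0.85), with adjusted p from 0.00787 to 0.307 over the alternatives.

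Whether NSC changed the response was read from the direct comparison at 40 h. No member passed the threshold in either direction, where 0% of all genes were higher and 0.0399% (6 genes) lower. At an unadjusted p under 0.05, 8 of the 28 members differed (28.6%, against 19.5% of all genes): 7 were lower with NSC, against 10.2% of all genes, and 1 was higher, against 9.3%. The DESeq2 Wald test gave 0 higher and 1 lower member, *Mmp2* (-1.02, with adjusted p from 0.0319 to 0.425 over the alternatives), against 1.9% and 3.13% of all genes. Of the 28 log2 fold changes 20 were below 0, the median was -0.47 and that of all genes 0.02. NSC was lower without overlap for 6 members and higher for 0, against 12.2% and 10.3% of all genes. The 6 were *Mmp2*, *Mmp11*, *Mmp12*, *Mmp17*, *Mmp23* and *Adamts10*.

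The members with an unadjusted p under 0.05 were of several roles. For *Mmp2*, NSC against vehicle gave a log2 fold change of -1.03 (95% interval -1.68 to -0.38, adjusted p = 0.119). Its partner in proenzyme activation, *Mmp14*, gave -0.58 (-1.05 to -0.12, adjusted p = 0.176). *Mmp12* gave -1.54 (-2.82 to -0.26, adjusted p = 0.188). Every NSC remnant was below every vehicle remnant for *Mmp2* and *Mmp12*, and for *Mmp14* NSC replicate 1 exceeded vehicle replicate 3. *Mmp17* (chr5:129584169-129608875) had 0.284, 0.519 and 0.693 CPM at baseline, 0.951, 0.570 and 0.738 in the vehicle remnants and 0.450, 0.238 and 0.352 in the NSC remnants, and gave -1.11 (-2.10 to -0.11, adjusted p = 0.216). *Adamts10* gave -0.68 (-1.14 to -0.23, adjusted p = 0.128). *Adamts13* and *Adamts2* gave -0.74 and -0.81 (adjusted p = 0.233 and 0.236). *Mmp27* was the member with a higher value (1.32, adjusted p = 0.236). For *Timp1* the value was -0.40 and its 95% interval, -1.99 to 1.19, included both a fall and a rise of 2-fold, whereas that of *Mmp19* ran from -0.29 to 0.36.

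The direct comparison depended on NSC replicate 1. Without it, 0 of 28 members were higher and 5 lower (17.9%), where 3.73% of all genes were higher and 2.73% lower, 22 of 28 log2 fold changes were below 0 and the median was -0.76. The 5 were *Timp1*, *Adamts2*, *Adamts12*, *Adamts13* and *Mmp12*. The log2 fold change of *Timp1* was then -2.05 (adjusted p = 0.00138, 0.00138 to 1.000 over the alternatives), where the 2 NSC remnants kept had 1.77 and 1.33 CPM. *Adamts12* gave -2.66 (adjusted p = 0.0117, 0.0117 to 0.607 over the alternatives) and *Mmp12* -2.37 (adjusted p = 0.0398, 0.0398 to 0.443 over the alternatives). *Adamts2* gave -1.39 (adjusted p = 0.0113, 0.0113 to 0.524 over the alternatives) and *Adamts13* -1.25 (adjusted p = 0.0152, 0.0152 to 0.580 over the alternatives). *Timp3* turned from 0.43 to -0.36 and was not called in either fit. With NSC replicate 1 in, none of the 5 passed. That library was set apart by these same members, as the highest NSC library for 22 of the 28. Leaving it out thus lowers the NSC level of most members by construction, so these counts are no test of the members. All genes, the background, were not chosen in that way. When vehicle replicate 1 was left out instead, with NSC replicate 1 kept, the median was -0.41. Without NSC replicate 2 it was -0.25, and without NSC replicate 3 also -0.25, each over 31 tested members and nearer 0 than with all libraries.

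**Figure D4:**
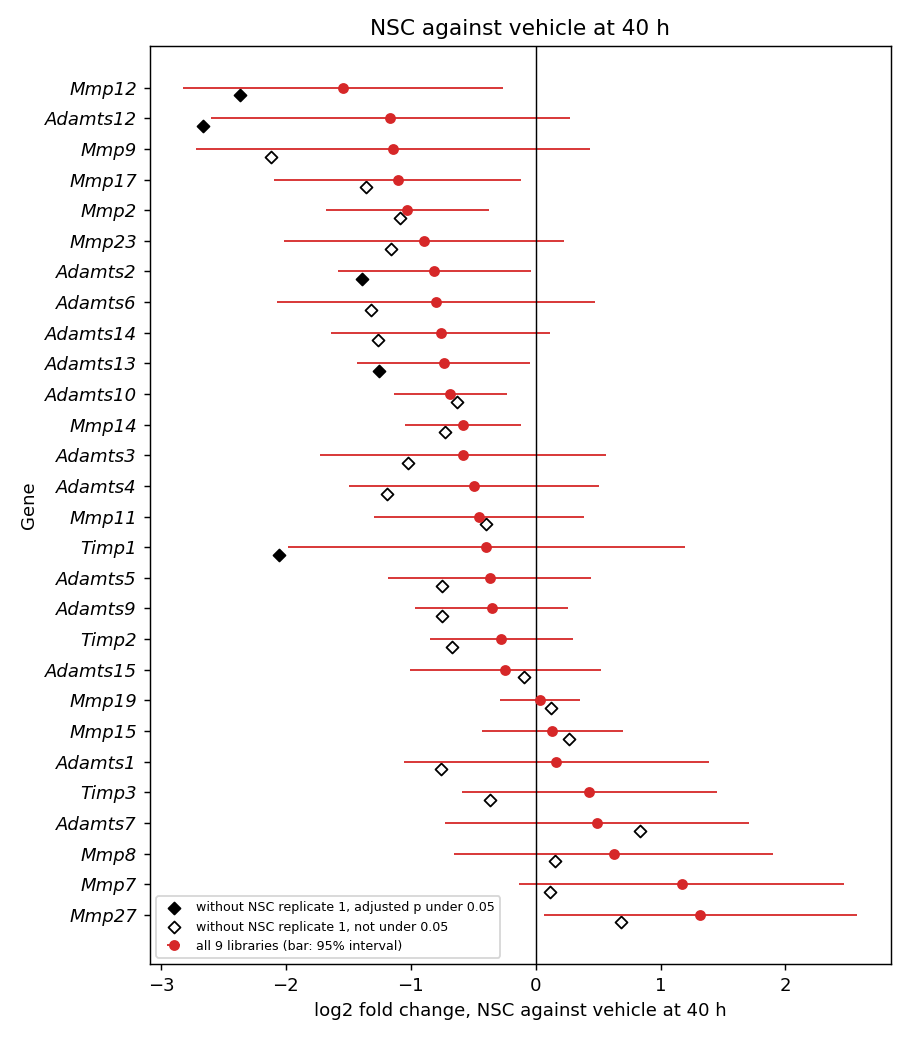
Log2 fold change of NSC against vehicle at 40 h for the 28 tested members, with all 9 libraries (red, bar: 95% interval) and without NSC replicate 1 (diamonds, filled where the adjusted p is under 0.05). With all libraries 20 of 28 points lie below 0 and none passes, and without that library 22 lie below 0 and 5 pass.

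The other genes of the pathway were 55 activators, further inhibitors, sheddases, ADAMTS-like genes and matrix substrates, of which 50 were tested. With vehicle, 27 of the 50 rose and 2 fell (median 0.94), against 12.7% and 11% of all genes. With NSC 18 rose and 7 fell (median 0.61), against 18.2% and 16.5%, so that the share that fell was close to the background. Without NSC replicate 1, 10 of the 50 rose and 9 fell with NSC (median 0.27), against 17.8% and 15.9% of all genes. Those with the smallest adjusted p in the vehicle comparison were *Cd63*, a tetraspanin that binds TIMP1 (log2 fold change 2.24, adjusted p = 0.000170), the basement membrane collagens *Col4a2* (log2 fold change 1.43, adjusted p = 0.000478) and *Col4a1* (log2 fold change 1.78, adjusted p = 0.000756), and the broad protease inhibitor *A2m* (log2 fold change 7.97, adjusted p = 0.000778). *A2m* had 0, 0 and 0.132 CPM at baseline, 8.91, 19.0 and 6.90 in the vehicle remnants and 3.48, 5.23 and 1.25 in the NSC remnants, so that its fold change rests on 4 baseline counts. With NSC they were *Cd63* (log2 fold change 1.84, adjusted p = 0.000362), the small proteoglycan lumican, *Lum* (log2 fold change 2.05, adjusted p = 0.000504), osteopontin, *Spp1* (log2 fold change 1.35, adjusted p = 0.000874), and the sheddase *Adam10* (log2 fold change 0.91, adjusted p = 0.000929). Of 17 tested substrates, 14 rose with vehicle and 8 with NSC, against 12.7% and 18.2% of all genes. None fell with all libraries in the fit, where 11% and 16.5% of all genes fell. When NSC replicate 1 was left out, 4 substrates rose and 2 fell with NSC, against 17.8% and 15.9% of all genes.

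Between NSC and vehicle at 40 h, 0 of the 50 pathway genes passed, 24 had an unadjusted p under 0.05 (19.5% of all genes did), 40 were below 0 and the median was -0.56. The DESeq2 Wald test called 13 of them lower, against 3.13% of all genes. The edgeR test without NSC replicate 1 called 20 lower and 0 higher, against 2.73% and 3.73% of all genes. The 17 substrates had a median of -0.96 here, and 14 of them were called lower without that library.

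Markers of other cell types were read from the same fit. Beside the counts below, 12.7% of all genes rose and 11% fell with vehicle, and 18.2% rose and 16.5% fell with NSC. In lists of 4 to 8 genes a count of 1 or 2 can lie near these shares, so the counts are descriptions. The 8 stellate cell and myofibroblast markers, none at 0 in any library, summed to 136, 126 and 131 CPM at baseline, 178, 192 and 153 in the vehicle remnants and 211, 115 and 127 in the NSC remnants. Of these 4 rose with vehicle, and 1 rose and 1 fell with NSC. The list was mixed: of its 8 log2 fold changes, 2 were below 0 with vehicle and 4 with NSC. *Des* (desmin), 1 of the 8, had 2.97, 4.21 and 3.37 CPM at baseline, 6.68, 5.73 and 6.13 in the vehicle remnants and 5.04, 3.87 and 3.76 in the NSC remnants. The 8 Kupffer cell and macrophage markers summed to 223, 152 and 165 CPM at baseline, 226, 272 and 149 in the vehicle remnants and 489, 295 and 311 in the NSC remnants, 2 of them rose with vehicle and 5 with NSC, and none was at 0. For the 4 monocyte markers the sum was 2.46, 1.53 and 1.22 CPM at baseline, 9.43, 7.52 and 7.68 in the vehicle remnants and 13.8, 4.75 and 4.07 in the NSC remnants, with 2 higher with vehicle and 3 with NSC. In these sums and in *Timp1*, NSC replicate 1 was the highest NSC library, as it was for 37% of all genes tested. The same held for the neutrophil, mesothelial, sinusoidal endothelial and lymphocyte sums, and not for the cholangiocyte, hepatocyte and pancreas sums. The 8 neutrophil markers summed to 10.9, 3.54 and 6.67 CPM at baseline, 11.6, 20.4 and 9.45 in the vehicle remnants and 21.7, 16.2 and 13.3 in the NSC remnants, with up to 4 of 8 (*Ly6g*, *Ngp*, *Camp* and *Ltf*) at 0 in a library, and of the 4 tested 1 rose with vehicle and 3 with NSC.

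The 4 mesothelial markers summed to 2.27, 2.05 and 3.63 CPM at baseline, 19.7, 19.6 and 23.0 in the vehicle remnants and 19.3, 12.5 and 0.861 in the NSC remnants, 2 rose with vehicle and 1 with NSC, and NSC replicate 3 was below the baseline range. The 8 sinusoidal endothelial markers summed to 266, 284 and 263 CPM at baseline, 163, 247 and 178 in the vehicle remnants and 299, 174 and 189 in the NSC remnants. Of these 3 fell with vehicle and 2 with NSC, against 11% and 16.5% of all genes. For the 5 cholangiocyte markers the sum was 6.86, 4.79 and 6.43 CPM at baseline, 19.1, 15.1 and 15.2 in the vehicle remnants and 10.6, 11.5 and 8.92 in the NSC remnants, and 3 rose with vehicle and 2 with NSC. Of 6 hepatocyte markers 1 fell with vehicle and 2 with NSC, where 11% and 16.5% of all genes fell. None of the 5 lymphocyte markers, at 0.517 to 5.08 CPM in sum, was called. Pancreas markers summed to at most 1.43 CPM, with *Cpa1* and *Pnlip* at 0 in all libraries. Between NSC and vehicle at 40 h no marker passed with all libraries in the fit. Leaving out NSC replicate 1, 2 of 52 tested markers were higher with NSC and 5 lower, against 3.73% and 2.73% of all genes. The 2 were Kupffer cell markers (*Vsig4* and *Timd4*). The 5 were 2 stellate cell markers (*Pdgfrb* and *Acta2*), 2 cholangiocyte markers (*Krt7* and *Krt19*) and 1 monocyte marker (*Chil3*). The part of these cell types in the changes of the *Mmp*, *Adamts* and *Timp* genes was not tested.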

How the data were processed

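RNA of whole liver was sequenced from stranded mRNA libraries, 3 per group. The authors ran STAR (2.6.1) within the MAP-RSeq pipeline and deposited, for every gene and library, an unnormalized count from featureCounts (Subread 1.5.1). The processing notes name a human genome build, whereas the deposited gene identifiers and coordinates are mouse ones, and all 46 members were found by identifier in the mouse GRCm38 annotation, 26 of them with the same chromosome, start and end. Whether counting used strand is not given in the sources used here. The overlap of 1 member with a neighbouring gene is not reported here. FPKM values were deposited beside the counts by the authors, who divided by gene length and library total, and served here only to compare levels between genes.

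The fit was made with edgeR 4.0.16 under R 4.3.3 (limma 3.58.1). After filterByExpr and TMM scaling, which CPM values also use, the group was the only term of a robust quasi-likelihood fit to all 9 libraries. For each of 3 comparisons the Benjamini-Hochberg adjustment covered 15024 genes, and a gene was called at an adjusted p under 0.05. Alternatives were scaling by RLE or by library size, a looser filter (any gene with 1 count or more) and a stricter one (10 counts in each library), DESeq2 1.42.0, fits of 2 groups, a block for the replicate number, a log2 fold change over 1.5, and each library left out. The fit was tested on simulated data: for vehicle against baseline it recovered 81 of 200 altered genes at 2-fold and 171 of 200 at 4-fold. Plots and motif matches used Python 3.11.15, matplotlib 3.10.9 and pandas 2.3.3.

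The members and lists were chosen with earlier results of these data known. Named were members called in any comparison, all TIMPs, members with an unadjusted p under 0.05 between NSC and vehicle, the 5 of highest mean FPKM and those with 3 counts or fewer throughout; of the pathway list, the 4 with the smallest adjusted p per comparison. Further tested members (Mmp9, Mmp11, Mmp23, Adamts1, Adamts5 and Adamts14) were named to complete their role groups, after their values were seen.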

Additional observations from a re-analysis of the deposited data

How the results depend on the processing

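Counts of called members (higher and lower) were 11 and 3 for vehicle against baseline, 7 and 5 for NSC against baseline, and 0 and 0 between NSC and vehicle. With at least 10 counts in every library, 16 members were tested, of which 6 rose with vehicle and 2 with NSC. This filter removes members low at baseline, so these counts are not comparable with the 11 and 7 above. In fits of the 2 groups alone, 5 members fell with vehicle and 11 pathway genes rose with NSC, in place of 18. With library size only, 3 members fell with NSC. That scaling put the median of all genes at 0.15 for NSC against baseline and 0.14 for NSC against vehicle, and the member medians at 0.57 and -0.35. A log2 fold change over 1.5 left 2 members lower with NSC. Of the pathway genes it left 8 higher (of 18) and 1 lower (of 7) with NSC, and 0 lower (of 2) with vehicle. Between NSC and vehicle, the DESeq2 Wald test called 1 member and 13 pathway genes lower, and testing all genes with at least 1 count called 3 pathway genes lower. DESeq2 gave no adjusted p for Timp1 against baseline. The cause of these shifts was not tested.

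With each library left out in turn, 8 to 14 members rose and 2 to 5 fell with vehicle, 4 to 8 rose and 2 to 5 fell with NSC, and 0 to 5 were lower (0 higher) with NSC than with vehicle, the 5 without NSC replicate 1. For pathway genes these ranges were 20 to 31 and 1 to 2, 8 to 17 and 5 to 9, and 0 to 20 lower (0 higher). The share of all genes called moved as well, and whether the shifts were particular to the members was not tested. Without NSC replicate 1, the share higher with vehicle went from 12.7% to 15.8%. Between NSC and vehicle the share higher then went from 0% to 3.73% and the share lower from 0.0399% to 2.73%. Among the members, the share lower went from 0% to 17.9%, where leaving out that library lowers most members by construction. Signs turned in 12 of the leave-1-out fits of named members, none of them called before or after the turn. Over these fits, for vehicle against baseline, Adamts10 ranged from -0.074 (without vehicle replicate 2, with -0.073 without baseline replicate 1) to 0.21, Mmp19 from -0.10 to 0.050 (positive without baseline replicate 3) and Mmp27 from -0.16 (without vehicle replicate 2) to 0.61. For NSC against baseline, Mmp19 ranged from -0.12 (without NSC replicate 3, with -0.07 when baseline replicate 2 was left out) to 0.098, and Timp2 from -0.14 (without NSC replicate 1) to 0.42. For NSC against vehicle, leaving out NSC replicate 3 gave the lowest value of Adamts7 (-0.076, highest 0.84) and Mmp19 (-0.10, highest 0.12) and the highest of Timp1 (0.042, lowest -2.05). Mmp15 ranged from -0.11 (without vehicle replicate 3) to 0.49, and Timp3 from -0.36 (without NSC replicate 1) to 0.75.

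Deviations from the group means correlated at -0.048 to 0.134 between libraries of the same number and at -0.115 to 0.066 between different numbers. The labels do not say that a number marks 1 mouse or batch, so the numbers were not taken as pairs. Whether libraries of the same number share a batch was not tested. With the replicate number as a block, 11 members rose and 3 fell with vehicle, 8 rose and 5 fell with NSC, and 0 differed between NSC and vehicle, where 1 pathway gene was lower. The block ended the call of Adamts3 with vehicle (log2 fold change 1.80, adjusted p = 0.062 by edgeR) and added that of Mmp27 with NSC (1.49, adjusted p = 0.044). Not every library correlated best with its own number.

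With 3 libraries per group, changes near 2-fold were often missed on simulated counts, and members under about 10 counts could not be tested. Counts of 0 to 10 at baseline make the fitted fold changes of Timp1, Mmp7, Mmp8, Mmp12, Adamts3, Adamts4 and Adamts12 depend on few reads.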
